A study of Mus musculus with 6 samples.

Results

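The genes examined were 10 subunits of the SWI/SNF (BAF) chromatin remodelling complex that are studied in muscle differentiation: *Smarca2*, *Smarca4*, *Smarcc1*, *Smarcc2*, *Smarcd1*, *Smarcd2*, *Smarcd3*, *Dpf1*, *Dpf2* and *Dpf3*. They were taken by gene symbol from the 55401 genes of the deposited count matrix, and each symbol was found once. The set was chosen partly by the counts of *Dpf3* in these libraries, above 0 in control only, so the values of *Dpf3* are given below as a description with no test. The other 9 are read from a test over all genes. All 10 passed the filter on low counts, *Dpf3* through the control libraries alone. Poly(A)-selected RNA was sequenced from C2C12, a line of mouse myoblasts that form myotubes once the medium is switched to 2% horse serum, and the cells were taken 2 d post differentiation. The 3 *Phf2* KO libraries come from cells that received pooled Cas9 plasmids with *Phf2* guides, and the 3 control libraries, labelled wild type, come from mock cells that received the plasmid with a guide that matches no mouse sequence. Each group was a sorted pool that was not cloned, and the replicates are wells of a single experiment, so p-values measure only the spread between wells, and a difference between the pools cannot be told apart from an effect of *Phf2*.

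SWI/SNF complexes use the energy of ATP to slide or evict nucleosomes and so open promoters and enhancers. In skeletal muscle, MyoD brings the complex to muscle genes at the start of differentiation, and the complex is built from paralogous subunits of which a given complex holds a choice: an ATPase (BRM, from *Smarca2*, or BRG1, from *Smarca4*), a pair of scaffold subunits (BAF155, from *Smarcc1*, and BAF170, from *Smarcc2*), a BAF60 subunit that contacts transcription factors (*Smarcd1*, *Smarcd2* or *Smarcd3*), and, in the canonical form, a double PHD finger protein that reads histone tails (*Dpf1*, *Dpf2* or *Dpf3*). The BAF60c protein of *Smarcd3* and the DPF3 protein are the members best known for heart and skeletal muscle, while *Dpf1* is known from neurons.

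The sequences before the annotated starts are shown for the 3 BAF60 genes, of which *Smarcd2* was the member past the threshold, and for *Dpf3*. The window searched was the 250 bases before the RefSeq start (GRCm38.p6, the assembly of mm10). Printed is the part of the window before its first base in a GENCODE M21 exon of the gene, 5' to 3' on the strand of the gene. Capitals mark each E-box, CANNTG, the core that MyoD and other bHLH factors bind. The printed parts are chr15:99702037-99702128 on the plus strand and chr11:106267800-106267882, chr5:24602013-24602252 and chr12:83487737-83487986 on the minus strand. Those of *Smarcd2* and *Smarcd3* lie inside the longer GENCODE gene models, downstream of other annotated exon bases. RNA levels do not show which start was used.
Smarcd1: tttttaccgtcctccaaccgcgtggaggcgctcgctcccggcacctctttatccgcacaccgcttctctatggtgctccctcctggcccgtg
Smarcd2: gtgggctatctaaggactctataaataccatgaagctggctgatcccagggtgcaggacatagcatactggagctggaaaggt
Smarcd3: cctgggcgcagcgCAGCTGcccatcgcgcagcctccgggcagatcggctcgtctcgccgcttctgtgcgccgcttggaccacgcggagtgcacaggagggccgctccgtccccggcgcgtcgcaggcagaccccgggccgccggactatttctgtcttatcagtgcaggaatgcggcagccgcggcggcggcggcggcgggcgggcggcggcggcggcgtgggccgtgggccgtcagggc
Dpf3: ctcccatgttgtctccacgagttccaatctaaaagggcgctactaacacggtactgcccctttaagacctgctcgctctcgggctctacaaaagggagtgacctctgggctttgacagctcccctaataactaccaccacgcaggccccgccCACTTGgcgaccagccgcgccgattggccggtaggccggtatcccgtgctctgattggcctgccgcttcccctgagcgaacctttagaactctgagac

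The 3 BAF60 windows differed in base composition. The *Smarcd2* window held 4 CpG dinucleotides at 56.4% G+C, against 29 CpG at 71.2% for *Smarcd1* and 38 CpG at 76.0% for *Smarcd3*. The median over 32851 mouse promoter regions of this length was 6 CpG at 52.4%. Bases of an annotated exon of the gene made up 167 of the 250 for *Smarcd2*, 158 for *Smarcd1* and 10 for *Smarcd3*, so the windows are unlike in this respect. An E-box on either strand was found in the windows of 4 of the 10 members, with 1 for *Smarca2*, 2 for *Smarcd2*, 1 for *Smarcd3* and 1 for *Dpf3*, while 66.2% of all regions held at least 1. The form CAGCTG, which overlaps CANNTG, was found only before *Smarcd3* among the members and in 13% of all regions. Both E-boxes of *Smarcd2*, at 81 and 40 bases before its RefSeq start, lie in bases of an annotated exon, which are not printed. The GC box GGGCGG was found before 8 of the 10 members and in 32.7% of all regions.

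The libraries held between 52526109 and 67502788 estimated counts. They amount to the covered bases of a gene divided by 75, so a read pair adds about 4 of them. Levels are given as CPM, the estimated count scaled to the TMM-adjusted size of its library. The level of *Phf2* was 102.4, 95.5 and 104.6 CPM in control replicates 1 to 3 and 41.1, 37.6 and 38.6 CPM in the KO replicates, which left 38.8% of the control mean. This is RNA, and the paper reports a larger fall of PHF2 protein in the KO myoblasts. All 10 myotube markers that were checked (among them *Myog*, *Mymk*, *Acta1* and *Myh3*) were detected. For all 10 the KO libraries lay below the control libraries, where 25.1% of all genes tested had groups without overlap. Of the 10, 7 were lower past the threshold of 0.05 on the adjusted p, beside 3.26% of all genes tested. *Acta1* passed as well with the replicate block (adjusted p = 0.000808). These markers were listed with earlier results of these data known. Their summed level ran from 7507 to 8702 CPM in control and from 6006 to 6587 CPM in *Phf2* KO libraries. Because these are bulk samples, fewer differentiated cells and less RNA per cell cannot be told apart, and the part of this shift in the subunit values below was not tested. Of the 4 myoblast markers, *Cdh15* was lower past the threshold (217.1 ± 3.78 CPM in control, 169.5 ± 5.35 CPM in *Phf2* KO cells, SD, n = 3 each), while *Myf5*, *Pax7* and *Mki67* did not pass, with log2 fold changes of 0.14, 0.17 and 0.01. The sum of the 4, 316 to 319 CPM in control and 267 to 283 CPM in *Phf2* KO libraries, differed mostly by *Cdh15*. Markers of leukocytes, endothelium and adipocytes summed to at most 2.26 CPM in any library, with *Adgre1*, *Tie1*, *Plin1* and *Lep* at 0. Of the 5 fibroblast markers, *Thy1* was at 0, *Dpt* was lower past the threshold, *Dcn* passed as higher only with the replicate block (log2 fold change 0.22, adjusted p = 0.0331), and the sum, mostly *Dcn*, ran from 484 to 611 CPM in control and from 590 to 661 CPM in *Phf2* KO libraries.

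The changes of the SWI/SNF subunits were small, as were those of most genes. Over all genes tested the median absolute log2 fold change was 0.133, and 63.7% of them had one under 0.2. Of the 9 members tested, *Smarcd2* rose past the threshold of 0.05 on the adjusted p and none fell. That is 11.1% of the 9, beside 6.48% of all 17310 genes tested. Split by direction, 3.22% of all genes were called higher and 3.26% lower in *Phf2* KO cells. The 9 log2 fold changes ran from -0.08 (*Smarca4*) to 0.20 (*Smarcd2*) with a median of -0.02, beside a median of -0.001 for all genes. Control and KO values were fully separated for 4 of the 9 (*Smarca2*, *Smarca4*, *Smarcd1* and *Smarcd2*), as they were for 25.1% of all genes tested. An unadjusted p under 0.05 was reached by 2 of the 9 (*Smarcd1* and *Smarcd2*) and by 19.4% of all genes tested. For 8 of the 9 the standard error was between 0.041 and 0.072, so that the intervals of these genes lay within a fold of 0.887 to 1.27. The interval of the less abundant *Dpf1* was wider. Adjusted p-values come from the quasi-likelihood test of edgeR, with the Benjamini-Hochberg method applied over the 17310 genes, unless another tool is named.

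**Figure D1:**
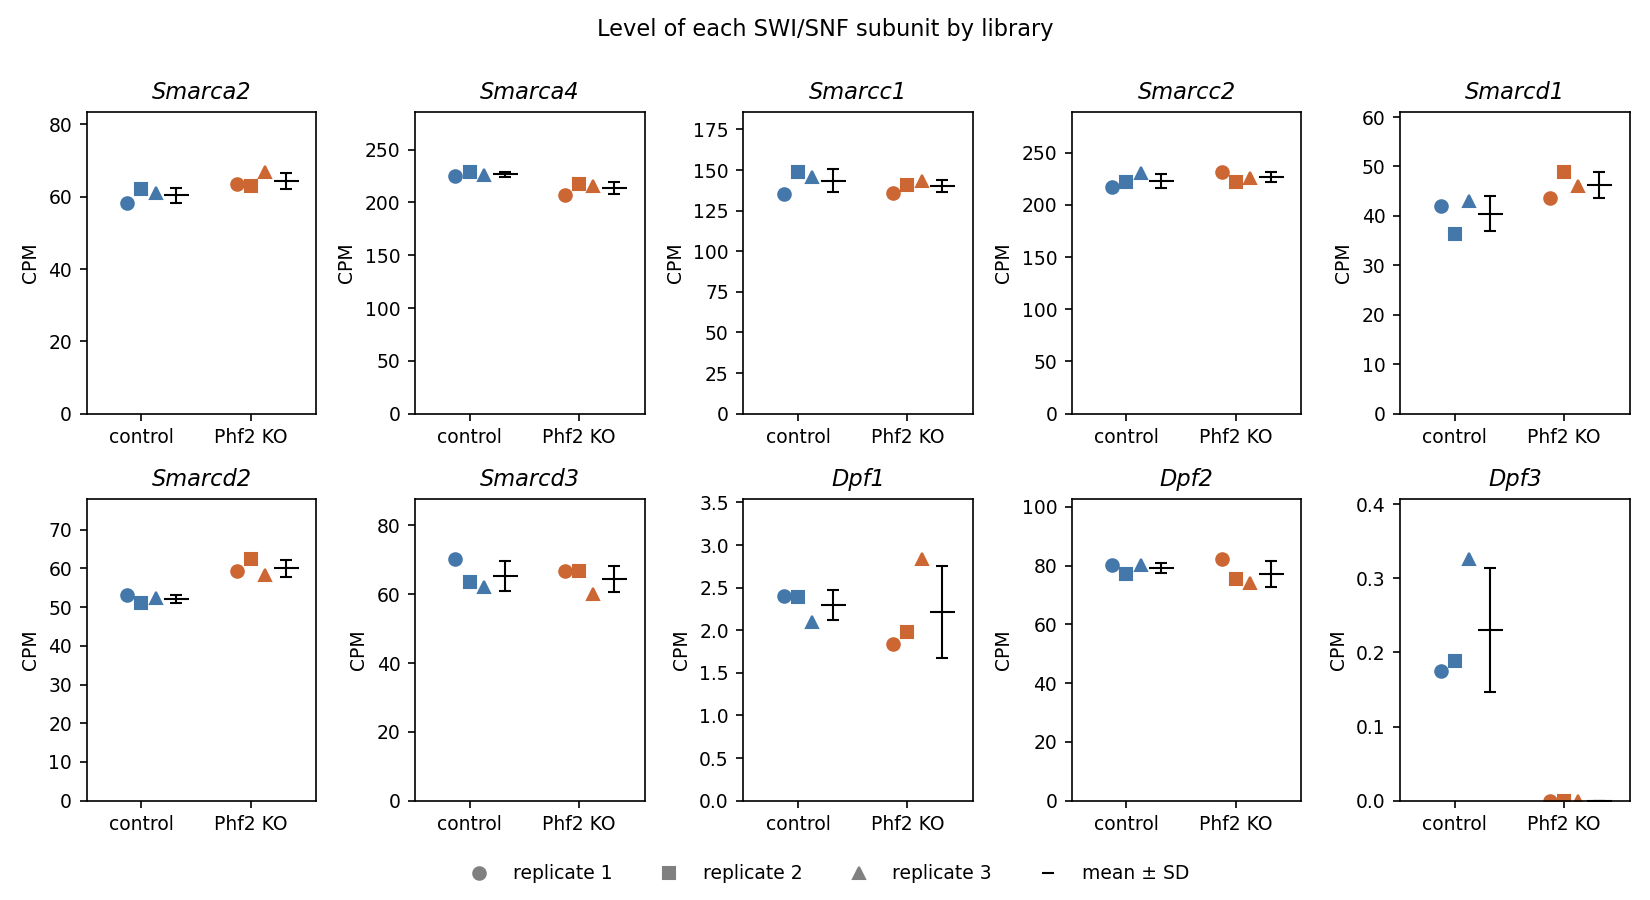
Level of each of the 10 subunits in CPM (vertical axis, linear from 0) in the 3 control (blue) and 3 *Phf2* KO (orange) libraries, with the symbol giving the replicate and the black bar the mean ± SD. The KO points of *Smarcd2* all lie above its control points, those of *Smarcd3* and *Dpf2* mix with the control points, and *Dpf3* is at 0 in every KO library.

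The ATPase genes were examined first. *Smarca4* (ENSMUSG00000032187, chromosome 9, 21616169 to 21704230) was counted at 224.7, 228.9 and 225.8 CPM in control replicates 1 to 3 and at 207.5, 217.9 and 215.4 CPM in the KO replicates. Every KO library lay below every control library, by little: 226.5 ± 2.16 CPM in control against 213.6 ± 5.44 CPM in *Phf2* KO cells (SD, n = 3 each). On the log2 scale the change was -0.08 with a standard error of 0.041 and a 95% interval from -0.17 to 0.004, and it did not pass (adjusted p = 0.285). *Smarca2* (ENSMUSG00000024921, chromosome 19, 26605050 to 26778322), the ATPase that is associated with cell cycle exit in differentiating cells, was at 58.1, 62.2 and 61.0 CPM in control and at 63.4, 62.8 and 66.9 CPM in *Phf2* KO libraries. Here the KO values were the higher ones throughout. The change was 0.09 on the log2 scale (standard error 0.052, 95% interval -0.02 to 0.20, adjusted p = 0.379).

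The level of *Smarca2* depended on the file. In the deposited tables of single libraries its TPM (an abundance scaled by StringTie for transcript length and library) was 12.1, 12.9 and 2.66 in control and 7.51, 5.03 and 7.04 in *Phf2* KO libraries, and the low control value has no counterpart in the counts. On TPM the log2 fold change turned to -0.23 (limma on log2(TPM + 1), adjusted p = 0.887, where the 12 alternatives with all 6 libraries ran from 0.350 to 0.906). The share of *Smarca4* in the sum of both ATPase genes followed this. With counts per exon length (CPM per kb of annotated exon) it was 89.5%, 89.0% and 89.1% in control and 87.8%, 88.4% and 87.7% in *Phf2* KO libraries, without overlap. With TPM it was 86.7%, 86.1% and 96.8% against 90.5%, 93.8% and 91.8%, which overlapped and gave the opposite sign, at 2.16 percentage points higher in *Phf2* KO cells instead of -1.23. The TPM difference was 5.62 points without control replicate 3, 0.576 without control replicate 1, 0.295 without control replicate 2 and 1.28 without *Phf2* KO replicate 2. On both scales BRG1's gene held most of the ATPase RNA in every library.

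The scaffold genes showed no such ordering. *Smarcc1* (ENSMUSG00000032481, chromosome 9, 110117708 to 110240178), which encodes BAF155, was at 135.5, 148.8 and 145.8 CPM in control and 136.2, 140.9 and 143.5 CPM in *Phf2* KO libraries, with a log2 fold change of -0.03 (95% interval -0.13 to 0.07, adjusted p = 0.791). *Smarcc2* (ENSMUSG00000025369, chromosome 10, 128459248 to 128490482), which encodes BAF170, was at 217.0, 222.1 and 230.1 CPM against 231.5, 222.0 and 226.0 CPM, with a log2 fold change of 0.02 (95% interval -0.07 to 0.11, adjusted p = 0.850). The groups overlapped for both genes, and both intervals lie within a fold of 0.911 to 1.08. The *Smarcc1* share of the pair, from CPM per kb, was 31.3% ± 0.805 in control and 30.5% ± 0.931 in *Phf2* KO cells (SD, n = 3 each), and the groups overlapped. With TPM the shares were 37.8% ± 1.38 and 35.2% ± 1.38 (SD, n = 3 each), without overlap. *Smarcc1* overlaps *Dhx30* on the opposite strand, whose log2 fold change was 0.02 (adjusted p = 0.928). The library kit keeps strand, but whether the counting used it is not given in the sources used here.

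The BAF60 genes held the member that rose. *Smarcd2* (ENSMUSG00000078619, chromosome 11, 106263179 to 106272972), which encodes BAF60b, a subunit known for granulocyte development, was at 53.1, 51.1 and 52.4 CPM in control and 59.2, 62.4 and 58.2 CPM in *Phf2* KO libraries. All 3 KO values exceeded all 3 control values, and the means were 52.2 ± 1.04 and 60.0 ± 2.20 CPM (SD, n = 3 each). This was a log2 difference of 0.20 (standard error 0.052, adjusted p = 0.0360), or a 1.15-fold level with a 95% interval from 1.06 to 1.24. This call was near the threshold. It was lost in each of the 6 fits that left out a library, with adjusted p from 0.0535 to 0.160 and log2 fold changes from 0.17 to 0.22. Of the 12 alternatives with all 6 libraries, whose adjusted p ran from 0.0188 to 0.129, limma-voom and both limma fits on TPM lost it.

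*Smarcd1* (ENSMUSG00000023018, chromosome 15, 99702129 to 99713991), which encodes the widely expressed BAF60a, had a similar difference with a larger spread. Its values were 42.1, 36.4 and 42.9 CPM in control and 43.6, 48.9 and 46.0 CPM in *Phf2* KO libraries. The KO libraries were again all above the control libraries, by less than 1 CPM between the closest pair. The difference of 0.19 on the log2 scale (standard error 0.072, 95% interval 0.04 to 0.34, adjusted p = 0.153) did not pass the threshold. *Gm34939* and *Gm17241*, which overlap *Smarcd1* on the opposite strand, were at 0.323 and 1.08 CPM in control and did not pass (adjusted p = 0.980 and 0.963).

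*Smarcd3* (ENSMUSG00000028949, chromosome 5, 24590818 to 24624411), the BAF60c gene of the muscle complex, was at 70.2, 63.5 and 62.0 CPM in control and 66.6, 66.8 and 60.2 CPM in *Phf2* KO libraries. The highest and the lowest value were a control and a KO library, and the rest were mixed. The means were 65.2 ± 4.41 and 64.5 ± 3.77 CPM (SD, n = 3 each), and they differed by -0.02 on the log2 scale (standard error 0.062, 95% interval -0.15 to 0.12, adjusted p = 0.934), which bounds a fall at a fold of 0.903. Its sign was positive without control replicate 1 (0.04) and without *Phf2* KO replicate 3 (0.03). The KO libraries in which these values were measured are those with the lower myotube markers. The gene overlaps *Chpf2* on the opposite strand, whose own change was -0.12 on the log2 scale (standard error 0.044, adjusted p = 0.127), so some reads of the overlap could have been counted to either gene.

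The summed level of the 3 BAF60 genes was 39.0, 35.7 and 37.4 CPM per kb in control and 40.3, 42.6 and 39.4 CPM per kb in *Phf2* KO libraries, without overlap, but 150.8, 134.0 and 132.1 TPM against 137.4, 138.1 and 148.5 TPM, with overlap. The share of *Smarcd3* in this sum was 35.2%, 34.8% and 32.4% in control and 32.2%, 30.6% and 29.8% in *Phf2* KO libraries (CPM per kb). The groups did not overlap on this scale, with 32.4% as the lowest control and 32.2% as the highest KO value, and the difference was -3.21 percentage points. With TPM the share was 54.5%, 52.9% and 47.0% against 47.5%, 42.1% and 48.5%, a difference of -5.47 points, and the groups overlapped. It was -3.51 points without *Phf2* KO replicate 2 and -7.70 points without control replicate 3. The share of *Smarcd2* was 39.0% ± 0.971 in control and 41.0% ± 0.161 in *Phf2* KO cells with CPM per kb, and 30.1% ± 1.66 and 34.3% ± 1.92 with TPM (SD, n = 3 each), without overlap on either scale. These shares are from the contrast by which the set was picked and were not tested.

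**Figure D2:**
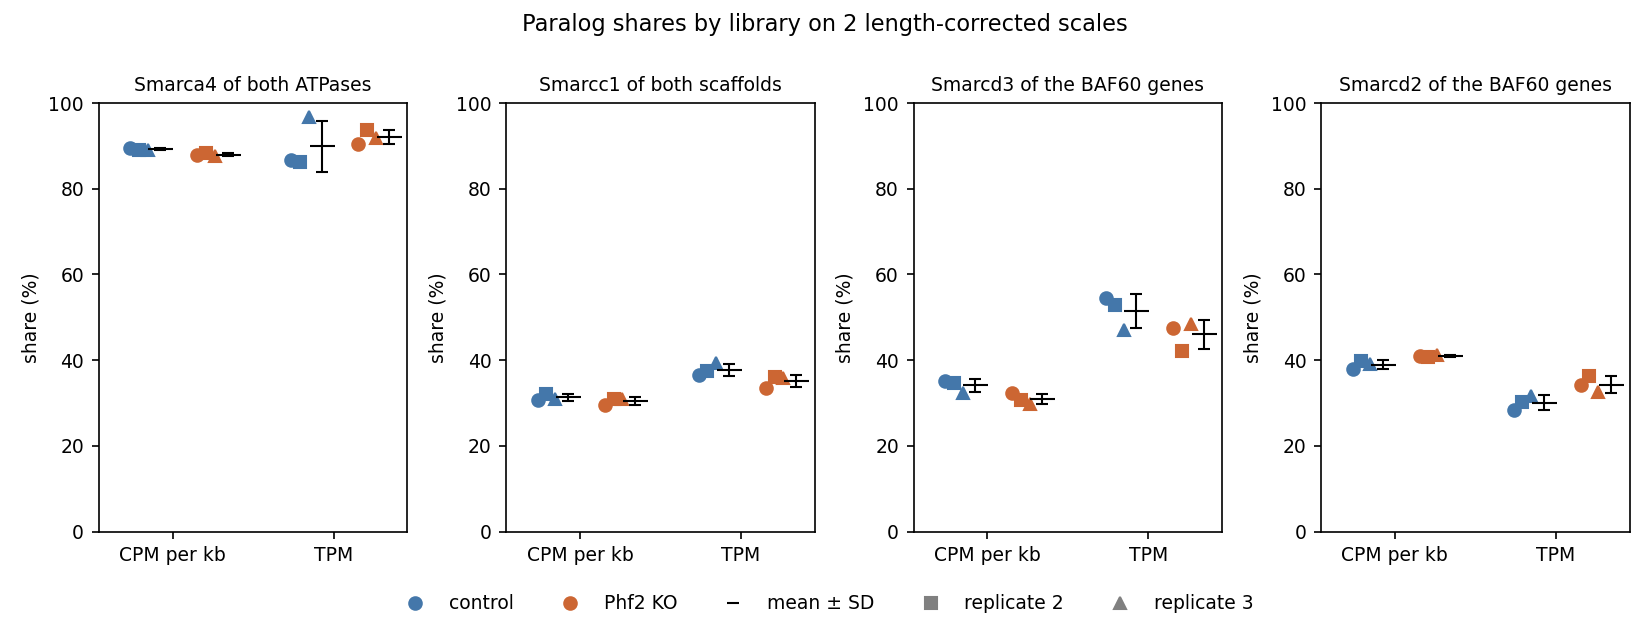
Share of a paralog in the summed level of its family (vertical axis, percent, from 0 to 100) in control (blue) and *Phf2* KO (orange) libraries, from CPM per kb on the left and TPM on the right of each panel, with mean ± SD in black and circles for replicate 1. The *Smarca4* share spreads from 86.1% to 96.8% over the control libraries with TPM and stays between 89.0% and 89.5% with CPM per kb, and the *Smarcd2* share is higher in all 3 KO libraries on both scales.

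The double PHD finger genes came last. *Dpf2* (ENSMUSG00000024826, chromosome 19, 5896516 to 5913010), the widely expressed member, was at 80.2, 77.0 and 80.3 CPM in control and 82.3, 75.3 and 74.1 CPM in *Phf2* KO libraries. The groups overlapped, and their difference was -0.04 on the log2 scale (standard error 0.052, 95% interval -0.15 to 0.08, adjusted p = 0.788). *Dpf2* held 96.2% ± 0.160 of the summed level of the 3 *Dpf* genes in control and 96.6% ± 0.935 in *Phf2* KO cells (CPM per kb, SD, n = 3 each). *Gm42067*, which overlaps *Dpf2* on the opposite strand, was at 0.479 CPM in control and 0.122 CPM in *Phf2* KO cells (adjusted p = 0.0933).

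*Dpf1* (ENSMUSG00000030584, chromosome 7, 29303951 to 29318243), the neuronal member, had 137, 139 and 122 counts in control and 113, 104 and 192 in *Phf2* KO libraries, or 2.29 ± 0.173 and 2.22 ± 0.541 CPM (SD, n = 3 each). The KO libraries held both the lowest and the highest value. The fitted difference was -0.05 on the log2 scale (standard error 0.23, 95% interval -0.55 to 0.45, adjusted p = 0.949), so a change of up to 1.37-fold up or to 0.684-fold could not be told from none at this depth. It was positive without *Phf2* KO replicate 1 (0.07) or 2 (0.03). Of the 6 neuronal markers checked, *Stmn2* was lower past the threshold, *Gad1* was at 0 in every library, *Rbfox3* and *Snap25* had at most 8 counts, and the sum, mostly *Stmn2*, ran from 43.7 to 46.0 CPM in control and 35.3 to 36.2 CPM in *Phf2* KO libraries.

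*Dpf3* (ENSMUSG00000021221, chromosome 12, 83213745 to 83487716) was near the detection limit in control cells. The matrix gave it 10, 11 and 19 counts in control replicates 1 to 3 and 0 in each KO replicate. At about 4 counts a read pair, the 40 control counts of the matrix stand for about 10 read pairs. A count of 0 over the 3 KO libraries allows up to 3 read pairs, or 12 counts. These counts are the ones that chose the set, so no fold change is given. The tables of single libraries did not list 0 throughout: the TPM of *Dpf3* was 0.0191, 0.00716 and 0.0148 in control and 0, 0.00263 and 0.00209 in *Phf2* KO libraries, so 2 of the 3 KO tables held coverage on the gene. In control replicates 1 to 3 its coverage there was 0.0379, 0.0146 and 0.0297, with 4225 bases of annotated exon. That is far fewer bases than 75 per count would give. The 2 sources thus disagree on *Dpf3* in control as well, and the cause was not tested. StringTie also assembled a locus that overlaps *Dpf3* on its strand in control replicates 1 and 3 (1.01 and 1.40 TPM) and in no other library. It falls in the contrast that chose the set and is given as a description. In the whole matrix, 3 genes, *Dpf3* among them, had at least 10 counts in every control library and 0 in every KO library. No gene had the reverse. The limit of 10 equals the lowest control count of *Dpf3*, so these numbers are a description and lend it no support. In control cells the counts of *Dpf2* were 343 times and those of *Dpf1* 9.95 times those of *Dpf3*. With TPM the control means were 60.7, 2.13 and 0.0137 for *Dpf2*, *Dpf1* and *Dpf3*, so both ratios were far larger on that scale. *Dpf3* is best known from cardiac muscle, and of the 5 cardiomyocyte markers checked, *Myl7*, *Tbx5* and *Hcn4* were at 0 in every library and the sum was at most 0.857 CPM.

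The order of the members per length in control cells was, from CPM per kb, *Smarcc2* (40.2 ± 1.18), *Smarca4* (35.0 ± 0.333), *Smarcc1* (18.3 ± 0.893), *Smarcd2* (14.5 ± 0.289), *Smarcd3* (12.7 ± 0.861), *Dpf2* (12.2 ± 0.284), *Smarcd1* (10.1 ± 0.887), *Smarca2* (4.24 ± 0.147), *Dpf1* (0.427 ± 0.032) and *Dpf3* (0.0545 ± 0.0198), each as mean ± SD (n = 3). The control ranges of *Smarcd3* and *Dpf2* overlapped, and those of all other neighbours in this order did not. With TPM the leading gene was again *Smarcc2* (96.0 ± 4.76 TPM) and the last again *Dpf3*, but *Smarcd3* followed *Smarca4* with 62.1 to 82.1 TPM, above *Dpf2*, *Smarcc1*, *Smarcd2* and *Smarcd1*, and its range overlapped those of *Smarca4* and *Dpf2*. *Smarcd3* was above *Smarcd2* with TPM and below it with CPM per kb. *Dpf2* turned in the same way against *Smarcd2*, with 60.7 against 41.7 TPM. *Smarcd3* and *Dpf2* also each had a mean above that of *Smarcc1* with TPM and below it with CPM per kb. The TPM ranges of *Dpf2* and *Smarcc1* in control overlapped. The order within these pairs depended on the scale, and these files do not settle it.

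**Figure D3:**
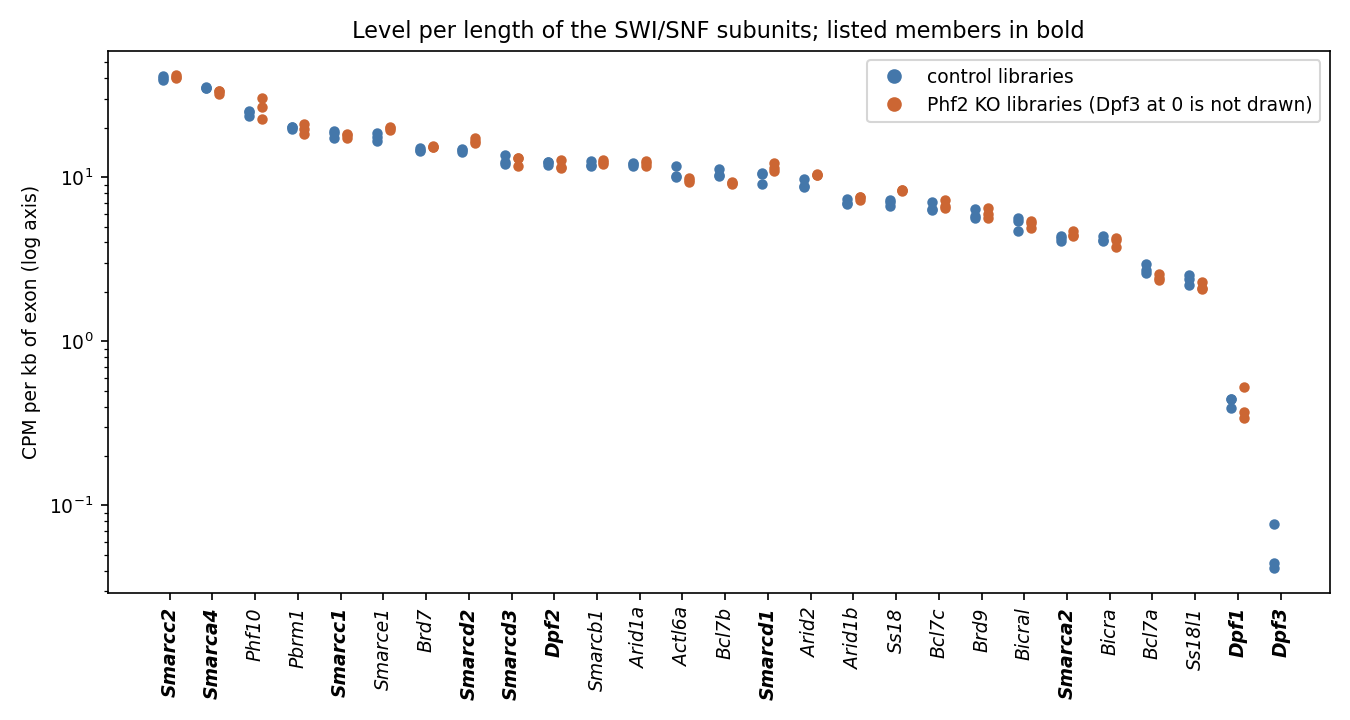
Level per length (CPM per kb of annotated exon, log axis) of the 10 members (bold) and of the other SWI/SNF subunits with at least 40 counts over the 6 libraries, ordered by their control mean, in control (blue) and *Phf2* KO (orange) libraries. *Smarcc2* and *Smarca4* lead, *Smarca2* has a control mean of 4.24, and *Dpf1* and *Dpf3* lie below all the others drawn (the KO values of *Dpf3*, at 0, are not drawn).

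The other subunits of the BAF, PBAF and ncBAF forms were read from the same fit. Of the 20 genes, 17 passed the filter on low counts. *Actl6b*, *Bcl11a* and *Bcl11b*, subunits known from neurons and lymphocytes, had at most 4 counts in any library. Of the 17, 2 rose with an adjusted p under 0.05 and none fell (11.8%, against 6.48% of all genes tested), and their median log2 fold change was 0.02. *Ss18*, a subunit of the BAF and ncBAF forms, was at 66.2, 62.9 and 68.2 CPM in control and 78.2, 77.8 and 79.2 CPM in *Phf2* KO libraries. All KO values were above the control values, a difference of 0.25 on the log2 scale (standard error 0.049, adjusted p = 0.00681). Without control replicate 2 its adjusted p was 0.0563, and in the other 5 fits without a library it passed.

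*Arid2*, which defines the PBAF form, was at 95.4, 93.4 and 104.0 CPM in control and 110.0, 112.4 and 110.9 CPM in *Phf2* KO libraries, 0.19 higher on the log2 scale (standard error 0.048, adjusted p = 0.0341). The groups were separated, but the call was lost in 5 of the 6 fits without a library (0.0138 to 0.192 over the 6), remaining only without control replicate 3. *Smarce1*, which encodes the DNA-binding BAF57 subunit, had a log2 fold change of 0.17 and an adjusted p of 0.0535, which became 0.0478 in the fit blocked by replicate. *Smarce1* also passed with DESeq2 (0.0287), with a filter at 1 CPM in 3 libraries (0.0381) and with counts divided by 4 (0.0420), and it ran up to 0.897 over the 12 alternatives. With limma on log2(TPM + 1) its log2 difference was -0.12. Of the genes that did not pass, *Bcl7b* (-0.20), *Bcl7a* (-0.17) and *Actl6a* (-0.14) had the most negative log2 fold changes, with adjusted p of 0.153, 0.248 and 0.277. All 3 KO libraries were below the control libraries for each of them. In either direction, the groups did not overlap for 7 of the 17 other subunits tested (41.2%), beside 25.1% of all genes tested.

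**Figure D4:**
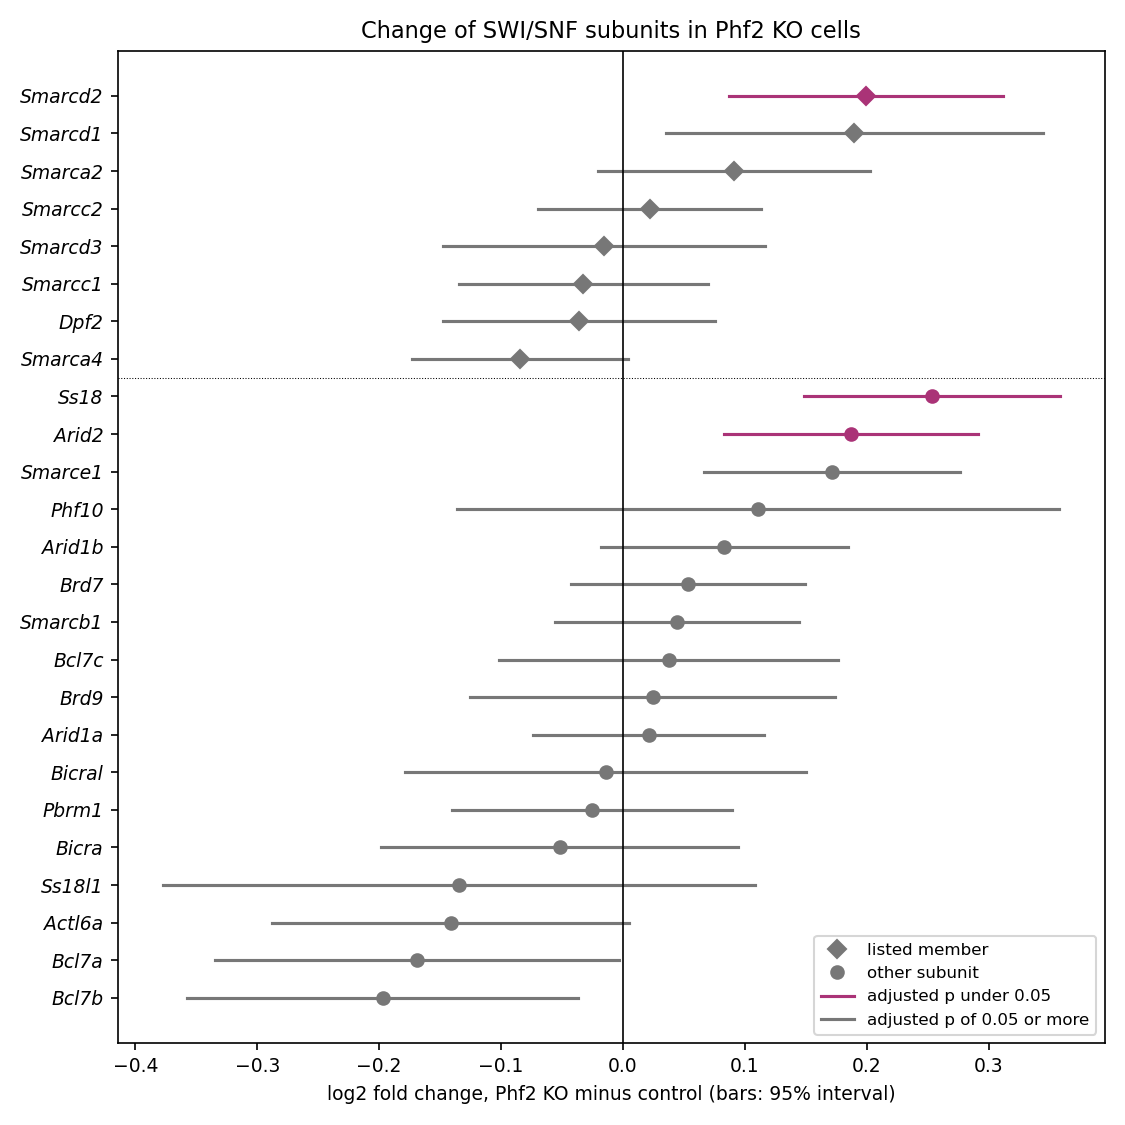
Log2 fold change (*Phf2* KO minus control, horizontal axis) with its 95% interval for 8 members (diamonds, top) and the other 17 subunits tested (circles). *Dpf1*, with the interval from -0.55 to 0.45, and *Dpf3*, which was not tested, are not drawn. *Smarcd2*, *Ss18* and *Arid2* (purple) had an adjusted p under 0.05, and no subunit drawn reached a log2 fold change of 0.3 in either direction.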

How the data were processed

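RNA sequencing of 3 control and 3 *Phf2* KO wells was analysed from the deposited tables. The authors aligned paired-end reads to mm10 with HISAT2 and obtained counts with StringTie. Versions, annotation and strand setting are not given in the sources used here. Estimated counts per gene, unscaled and rounded to whole numbers, fill the matrix the authors deposited. In genes with 1 transcript, covered bases per count had a median of 74.98 to 74.99. A table the authors deposited for each library gives TPM, used here as a signal scaled within the library, and coverage, the mean read depth per base. They list reference genes and loci assembled in that library, and the rows of reference genes were used. Totals were 52526109 to 67502788 counts, and the precision of low genes is limited by read pairs, which add about 4 counts each.

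Estimated counts were tested with edgeR 4.0.16 in R 4.3.3 (filterByExpr with a minimum count of 10, TMM, robust quasi-likelihood test, prior count 0.125, 17310 genes, threshold 0.05). CPM per kb divides CPM by the GENCODE M21 exon length. Alternatives were exactTest (the test of the study), DESeq2 1.42.0, limma-voom (limma 3.58.1), other scalings and filters, the replicate block, counts divided by 4, limma on log2(TPM + 1) and log2(TPM + 0.1), and leaving out each library. The share of CPM per kb was added after the data were seen. Libraries with the same replicate number deviated together from their group means (correlations of 0.235, 0.258 and 0.168 over 10923 genes). For different numbers the correlations were at most -0.00193. Subtracting the group means pushes these below 0 once the former are positive, so they are not separate support. The numbers may carry a pairing, which is read from the data and not from the design and was not tested. The procedure was also run on simulated counts drawn independently for each library. These had neither about 4 counts a read pair nor a shared deviation by replicate number, so that run does not cover these traits.

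The members, the lists of other subunits, remodellers and markers, and the tests were chosen with earlier results of these data known. Named were all members, *Phf2* and, of the other subunits and the other remodellers, the genes past the threshold, the 4 others with the largest change and those that did not pass the filter. Markers were reported by list with those at 0 named, and further markers and the genes overlapping a member were named after their values were seen. Sequences are from RefSeq (GRCm38.p6), in which all 10 members were matched.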

Additional observations from a re-analysis of the deposited data

How the results depend on the processing

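The log2 fold changes of the 9 tested members kept their sign in the scalings, filters and tests on counts. It turned negative for *Smarca2* with limma on log2(TPM + 1) (-0.23) and log2(TPM + 0.1) (-0.22). Without a library it turned for *Smarcc2* (-0.00016 to 0.0424 over the fits without a library), *Smarcd3* (-0.0535 to 0.0381) and *Dpf1* (-0.265 to 0.0738). The number of members past the threshold, 1 (*Smarcd2*), became 0 with limma-voom, with limma on TPM at both pseudocounts, at an adjusted p under 0.01 and at a fold change of at least 1.5, and it was 0 to 0 in the fits without a library. For the other subunits it was 2, with 1 for limma-voom, 0 for limma on TPM at both pseudocounts and 0 to 2 without a library, and it was 3, with *Smarce1* added, for DESeq2, the filter at 1 CPM in 3 libraries, counts divided by 4 and the replicate block. Over all genes it was 1122, with 127 and 153 for limma on log2(TPM + 1) and log2(TPM + 0.1), 472 at an adjusted p under 0.01, 229 at a fold change of at least 1.5, and 468 to 1039 without a library (468 without control replicate 2, 577 and 613 without *Phf2* KO replicates 2 and 3). The KO minus control difference in the *Smarcc1* share was -2.60 percentage points with TPM, -0.88 with estimated counts, -0.79 with CPM per kb, and -3.22 to -1.81 without a library. For the *Smarca4* share it was 2.16 with TPM, -2.10 with estimated counts, -1.23 with CPM per kb, and 0.295 to 5.62 without a library, and for the *Smarcd3* share -5.47 with TPM and -7.70 to -3.51 without a library. With the replicate block 1316 genes passed, the member past the threshold was again *Smarcd2* (adjusted p = 0.0423), and among the tested members, other subunits, other remodellers, markers, *Phf2* and overlapping genes, the calls that changed were those of *Smarce1*, *Acta1* and *Dcn*, which passed. The cause of these differences was not tested. Depth limits *Dpf1* and *Dpf3*.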

Other observations

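The ATPase genes of other SNF2-type remodellers (ISWI, CHD, INO80 and related families) were read from the same fit. Of the 17 genes, 16 passed the filter on low counts, and *Smarca1*, an ISWI ATPase, had at most 12 counts in any library. Of the 16, 0 had an adjusted p under 0.05 with edgeR's quasi-likelihood test, and 0 did so with each of the other tests, filters and scalings or without a library. With an unadjusted p, 5 of the 16 (*Smarca5*, *Chd6*, *Chd7*, *Ino80* and *Atrx*) were under 0.05, beside 19.4% of all genes tested, and 6.48% of all genes tested passed with the adjusted p. Their log2 fold changes lay between -0.38 and 0.14, and the median was 0.04. The widest changes were -0.38 for *Chd5* (1.77 CPM in control), -0.15 for *Chd7*, 0.14 for *Ino80* and -0.13 for *Srcap*, with adjusted p of 0.530, 0.253, 0.181 and 0.501. The groups did not overlap for 5 of the 16, where 25.1% of all genes tested had groups without overlap.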
